A study of Homo sapiens with 68 samples.

Results

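The sites described here are peaks of hnRNP C, an RNA-binding protein, that no peak of 3 other RNA-binding proteins overlapped in the same cells. A peak of the first hnRNPc_50k_noPAGE library was taken as such an hnRNP C only site if a peak of the second hnRNPc_50k_noPAGE library overlapped it by 1 nt or more on the same strand, and if no peak of the 12 excluding libraries did so. Those 12 are the 50k_noPAGE and 50k_lowRNase libraries of hnRNPA1, hnRNPI and RBFOX2, with 2 replicates each. Of 441289 peaks in replicate 1, 209379 (47.4%) were overlapped in replicate 2, and 114632 of these were hnRNP C only sites. They make up 54.7% of the reproducible peaks, 26.0% of the peaks of replicate 1, and are set against 15800601 peaks listed in all 68 libraries. The other 94747 reproducible peaks are called shared hnRNP C sites. The sites were thus chosen by the peak positions in the 2 hnRNPc_50k_noPAGE libraries and the 12 excluding libraries, and values from these are given as a description without a test.

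hnRNP C is an abundant nuclear protein of the particles that package nascent transcripts. It binds runs of uridine, many of them in introns and in antisense Alu elements, and there it competes with the splicing factor U2AF2 for uridine-rich stretches near 3′ splice sites. Of the 3 proteins that define the exclusion, hnRNPA1 is a splicing regulator that shuttles between nucleus and cytoplasm, hnRNPI (also known as PTB) binds pyrimidine-rich tracts, and RBFOX2 is a sequence-specific splicing regulator.

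The data are peak lists of TLC-CLIP, in which ultraviolet light links proteins to RNA, an antibody pulls down 1 protein, and the attached RNA fragments are sequenced. The cells were HEK293T, an established line derived from human embryonic kidney, and the libraries form 34 groups with 2 replicates each. The labels do not say that replicates are separate cultures, so the p-values measure the spread between these libraries, which may be technical. The total number of reads of a library is unknown, and the number of listed peaks stands in for depth.

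The hnRNPc_50k_noPAGE libraries came from crosslinked lysate of 50000 cells treated with 0.005 U RNase, with gel (PAGE) purification left out. The crosslinked hnRNP C groups that the rule did not use number 9, with 18 libraries. Among these groups, 3 are from 50000 cells: hnRNPc_50k_lowRNase (0.005 U RNase), hnRNPc_50k_mediumRNase (0.025 U) and hnRNPc_50k_noPAGE_RecJ (0.005 U, with RecJ exonuclease as an additional step to remove adapters). The groups titled 5k and 500, each with and without RecJ, used 0.005 U, and their labels give 50000 cells while their titles give 5000 and 500. The groups hnRNPc_10k and hnRNPc_1k used 10000 cells with 0.001 U and 1000 cells with 0.0001 U, so cell number and RNase cannot be told apart there. Titles of both groups, and of hnRNPc_50k_lowRNase and hnRNPc_50k_mediumRNase, lack noPAGE, unlike those of the libraries that define the sites. Gel purification may thus differ from those libraries as well, and its part was not tested. The groups noUV_hnRNPc and noUV_noPAGE_hnRNPc are called uncrosslinked by their titles, although the shared protocol text describes crosslinking. For the other proteins, 6 crosslinked groups (12 libraries) and 6 groups titled noUV (12 libraries) lay outside the rule. The labels of all groups titled noUV give 50000 cells and 0.005 U. The 4 groups labelled Background hold RNA from gel regions of 50 to 75, 75 to 100, 100 to 150 and 150 to 250 kDa. Their labels give 10000 cells and 0.001 U. Library hnRNPc_50k_lowRNase replicate 1 listed 3268 peaks, against 175305 to 487908 in the other 17 crosslinked hnRNP C libraries outside the rule, and results that rest on it are also given without it.

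The strongest hnRNP C only sites are extremes rather than typical members: the median site had 14 reads, and 0.587% of sites had 100 or more. They are the positions with the best p-value rank in both hnRNPc_50k_noPAGE replicates and are given by their hg19 coordinates. Their read number, the last part of the peak name, is not defined in the sources used here. It was taken to count the reads of the peak and was not scaled. Where several listed peaks overlapped a site in a library, the largest read number is given.

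The site at chr17:16345078-16345210, plus strand, is 133 nt wide. Its read numbers were 591 and 580 in the 2 hnRNPc_50k_noPAGE libraries, 458 and 548 with RecJ, 376 and 395 at medium RNase, and 27 and 303 at low RNase. It had 542 and 408 reads in the 5k libraries, 317 and 257 in the 500 libraries, 320 and 74 in the 10k libraries, and 178 and 203 in the 1k libraries. Without UV it had 652 and 362 reads, and 488 and 355 where PAGE was left out too. It was thus listed in all 18 crosslinked hnRNP C libraries outside the rule and in all 4 without UV, with the low values in the 3268-peak library and in 1 of the 10k libraries. A peak of another protein in the excluding libraries lay 1 nt away, and 2 of 12 crosslinked libraries of other proteins outside the rule overlapped the site, both hnRNPA1 at medium RNase, with 26 and 41 reads.

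The site at chr22:38886927-38887008, minus strand, 82 nt wide, kept high read numbers when few cells were used. It had 561 and 713 reads in the hnRNPc_50k_noPAGE libraries, 608 and 573 in the 10k libraries, and 440 and 374 in the 1k libraries. Without UV the values were 357 and 298, and 279 and 311 where PAGE was left out too, below the lower hnRNPc_50k_noPAGE library in each case. Other crosslinked libraries were not all higher: the site had 302 and 333 reads at medium RNase, and 36 and 332 at low RNase. It was 1 of only 7 hnRNP C only sites in its gene, which held 64 reproducible peaks.

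The site at chr17:74560229-74560301, plus strand, had a different order of values. It had 330 and 265 reads in the hnRNPc_50k_noPAGE libraries, 928 and 483 in noUV_hnRNPc, 380 and 541 in noUV_noPAGE_hnRNPc, and 67 and 79 in the 10k libraries. All 4 libraries without UV exceeded both hnRNPc_50k_noPAGE libraries, and both 10k libraries were lower than either. They did not exceed all crosslinked libraries: hnRNPc_5k_noPAGE had 396 and 407 reads, and hnRNPc_50k_noPAGE_RecJ 232 and 392. These read numbers are not scaled for depth. The noUV_hnRNPc libraries listed 299616 and 299307 peaks, and the hnRNPc_50k_noPAGE libraries 441289 and 471844.

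The site at chr1:76252590-76252687, plus strand, showed the opposite order against hnRNPc_50k_noPAGE. It had 170 and 183 reads in the hnRNPc_50k_noPAGE libraries and 158 and 234 with RecJ. Crosslinked groups without noPAGE in their titles had fewer reads. These were 18 and 49 at low RNase, 42 and 59 at medium RNase, 34 and 59 at 10k, and 55 and 54 at 1k. In noUV_hnRNPc, whose title also lacks noPAGE, it had 19 and 57 reads, within the range of those groups. No peak was listed at the site in either noUV_noPAGE_hnRNPc library. No library of another protein outside the rule listed it.

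The remaining strongest sites lie at chr7:6501459-6501599 (minus strand), chr20:17940846-17940894 (minus), chr1:28833423-28833517 (plus), chr11:65209309-65209388 (plus) and chr17:56081448-56081463 (minus). The position on chromosome 7 was listed under 2 gene entries that overlap there, and counts as 1 position here. It was overlapped in 5 of the 12 crosslinked libraries of other proteins outside the rule, with 5 to 11 reads, against 277 and 232 in hnRNPc_50k_noPAGE. The chromosome 20 site was listed in 17 of the 18 crosslinked hnRNP C libraries, missing from hnRNPc_50k_lowRNase replicate 1, and the other positions in all 18. The chromosome 17 site is only 16 nt wide and overlaps another hnRNP C only site, chr17:56081401-56081462, which is listed under a different gene.

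Among sites found in all 18 libraries, and in the ranking by read number of the named sites, chr11:65267787-65267824 (plus strand, 38 nt) had 557 and 940 reads in hnRNPc_50k_noPAGE. It had 822 and 757 with RecJ, and 677 and 724 in the 10k libraries. In each group without UV it was listed in replicate 2 only, with 473 and 375 reads. Its gene held 66 reproducible peaks, of which 2 were hnRNP C only sites. The site at chrX:107970718-107970797 (minus strand) had 530 and 527 reads in hnRNPc_50k_noPAGE, 630 and 654 in the 10k libraries, 237 and 277 in noUV_hnRNPc, and 111 and 185 in noUV_noPAGE_hnRNPc. All 4 values without UV were below both hnRNPc_50k_noPAGE values, and the site was ranked by its read number in replicate 1 of that group. At medium RNase it had 152 and 138 reads, and at low RNase 23 and 254. The values without UV were thus not below those of all crosslinked libraries. It also had a peak in 4 of 8 gel-region libraries, with 13 to 55 reads.

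Across all 114632 sites, the median width was 65 nt, with an interquartile range of 46 to 86 nt and extremes of 1 and 354 nt. Shared hnRNP C sites had a median of 72 nt (51 to 96 nt). The median read number in replicate 1 was 14 for hnRNP C only sites and 18 for shared sites. Sites of 50 to 99 nt made up 56.2% of the hnRNP C only sites, and 9.43% were under 30 nt. Width and read number moved together across sites (Spearman's rho 0.556 over 114632 sites of 1 library, which share depth). The median read number rose from 8 in sites under 30 nt to 35 in sites of 150 nt or more.

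The peaks that other libraries placed on these sites were compared within each library. Their median width in hnRNP C libraries outside the rule differed from that over shared sites by a mean of −1.17 nt over 9 groups. It was lower in 6 groups and higher in 2, and the difference did not pass the test (exact two-sided sign-flip permutation test over group means, p = 0.0781, 0.100 after Benjamini-Hochberg adjustment over the 9 tests made). Without hnRNPc_50k_lowRNase replicate 1 it was −1.56 nt (exact p = 0.0312), without replicate 2 of that group −0.778 nt (exact p = 0.359), and without hnRNPc_50k_mediumRNase replicate 1 it was −1.22 nt (exact p = 0.0469). The median log2 read number was lower over hnRNP C only sites in 9 of 9 groups, by a mean of −0.25 (exact sign-flip permutation p = 0.00391, the smallest the design allows, adjusted 0.00879). With only peaks of p below 1e-05 the width difference was −0.111 nt (exact p = 0.875), and with shared sites weighted to the read numbers of the hnRNP C only sites in replicate 1 it was −0.222 nt (exact p = 0.586). The same weighting gave a difference in log2 read number of 0.037 (exact p = 0.0625). Both weighted values take the first overlapping peak of each site, where the unweighted ones take every overlapping peak. They therefore differ from the unweighted values in more than the weighting.

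The offset of the overlapping peaks was measured only where a peak overlapped the site, which bounds it by the peak widths. As a description, the midpoint of the overlapping peak lay a median of 14 nt from the midpoint of the site in hnRNPc_50k_noPAGE replicate 2, and 39.8% of sites had it within 10 nt. Over the 18 crosslinked libraries outside the rule the median was between 14 nt (hnRNPc_50k_noPAGE_RecJ and both 5k groups) and 25 nt (hnRNPc_50k_lowRNase replicate 1), and the share within 10 nt between 25.8% and 41.2%. In the 4 libraries without UV the median was 17 to 19 nt.

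hnRNP C only sites were spread over many genes. The peak names placed them under 10468 gene entries of the 11891 that held a reproducible hnRNP C peak. Of these, 1991 held hnRNP C only sites alone, while 8477 also held shared sites, and 96.2% of hnRNP C only sites lay in the latter. A gene held a median of 6 sites. There were 1890 genes with 1 site, 3727 with at least 10, 298 with at least 50 and 30 with at least 100. The 1449 genes with most sites held 50% of them, against 1246 genes for shared sites. Some positions lie in overlapping genes: 7976 sites (6.96%) shared their exact interval with the entry of another gene, and 110525 distinct intervals remained.

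The files give Ensembl gene identifiers with no names, and genes are therefore given by identifier. The most clusters (sites under 30 nt apart joined) were in ENSG00000158321 on chromosome 7, plus strand, with 179 sites in 175 clusters over a listed span of 1193892 nt. It held 388 reproducible peaks, so that 46.1% were hnRNP C only. ENSG00000183098 on chromosome 13, plus strand, followed with 178 sites of 442 reproducible peaks (40.3%). Mean recovery of its sites was 49.2% in the 9 crosslinked hnRNP C groups and 21.2% without UV. Recovery is the percentage of sites that a peak of another library overlapped by 1 nt or more on the same strand. The 10 genes with the most clusters held 118 to 179 sites each, and 40.3% to 65.8% of their reproducible peaks were hnRNP C only.

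A different set of 10 genes had the highest proportion of hnRNP C only sites among those with at least 50 reproducible peaks, and it had 0 genes in common with the first. In ENSG00000133812 on chromosome 11, minus strand, 48 of 56 reproducible peaks (85.7%) were hnRNP C only. In ENSG00000115183 on chromosome 2, plus strand, 46 of 54 (85.2%) were. The sites of these 10 genes had median read numbers of 8 to 15, and recovery of 28.9% to 43.0%. Over all 984 genes with at least 50 reproducible peaks, the median proportion was 54.2% (interquartile range 46.4% to 61.7%, lowest 1.85%).

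The proportion of hnRNP C only sites differed with the span a gene covers in the lists. It was 38.3% in genes with a listed span under 10000 nt and between 52.6% and 57.3% in the longer classes. Recovery in the 9 hnRNP C groups fell from 50.3% in the shortest class to 36.4% in genes of 500000 nt or more, while the median read number of the sites fell from 17 to 10. Shared sites fell likewise, from 60.9% to 43.8%, with median read numbers of 25 and 13. Among the chromosomes, the proportion ran from 50.5% on X to 60.3% on 15. On the mitochondrial chromosome, 1 of 137 reproducible peaks was hnRNP C only (0.730%).

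Within a gene, the distances between neighbouring hnRNP C only sites were widely spread, with a weak mode just over 100 nt. The distance between midpoints of neighbouring sites had its mode in the bin of 100 to 120 nt, for both hnRNP C only and shared sites. That bin held only 2.77% of the pairs of hnRNP C only sites and 3.28% of the pairs of shared sites. Over 104164 neighbouring pairs the median was 1615 nt, and 17.3% were within 200 nt and 40.8% within 1000 nt. Shared sites were closer, with a median of 1188 nt over 84847 pairs, and 19.0% within 200 nt. Distances were measured within each class, so that a shared site between a pair of hnRNP C only sites was passed over. Intervals that touched without overlapping made up 3.46% of pairs of hnRNP C only sites and 6.48% of pairs of shared sites. Joining sites under 30 nt apart gave 104545 clusters, of which 91.8% held 1 site, 7538 held 2 and 1026 held 3 or more. The largest cluster held 14 sites.

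**Figure D1:**
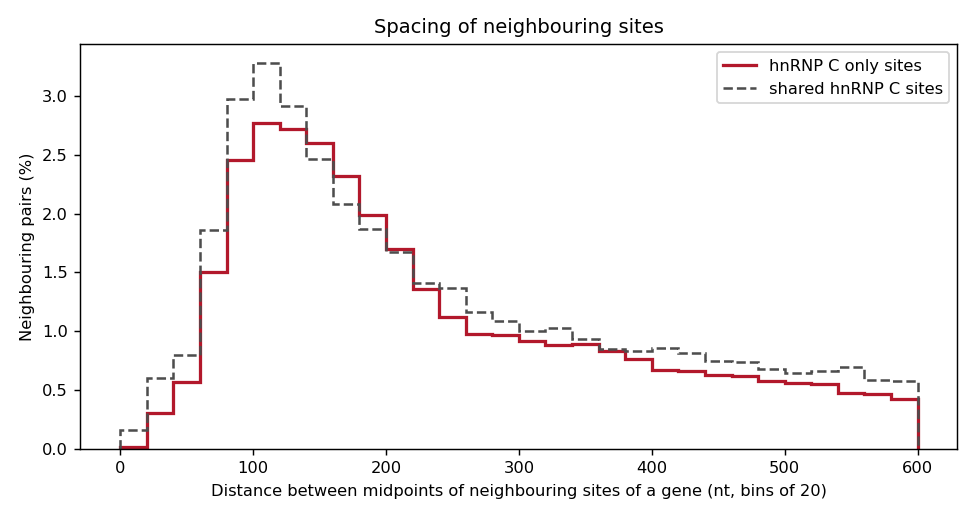
Share of neighbouring pairs of sites within a gene (%, vertical axis) by the distance between their midpoints (nt, bins of 20, horizontal axis), for hnRNP C only sites (solid line) and shared hnRNP C sites (dashed line) in hnRNPc_50k_noPAGE replicate 1. Both lines peak in the bin of 100 to 120 nt, and pairs beyond 600 nt are not drawn.

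Peaks of other proteins were often near, although none overlapped in the excluding libraries. The nearest peak of hnRNPA1, hnRNPI or RBFOX2 on the same strand was a median of 169 nt away (interquartile range 72 to 346 nt). It was within 50 nt for 17.6% of hnRNP C only sites, within 100 nt for 33.2% and within 1000 nt for 96.8%. The nearest peak was one of hnRNPA1 for 62.8% of sites and of RBFOX2 for 14.5%, with hnRNPI nearest to most of the others. The excluding libraries listed between 157375 and 523402 peaks, and these shares move with how many peaks each protein had. Moving the hnRNP C only sites by 1000 nt left 42.0% of them overlapped by an excluding library, and moving the shared sites likewise 51.2%. Unmoved, the excluding libraries overlapped 45.3% of all reproducible peaks, a share between these values. How far the local density of peaks sets the split into hnRNP C only and shared sites was not tested.

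**Figure D2:**
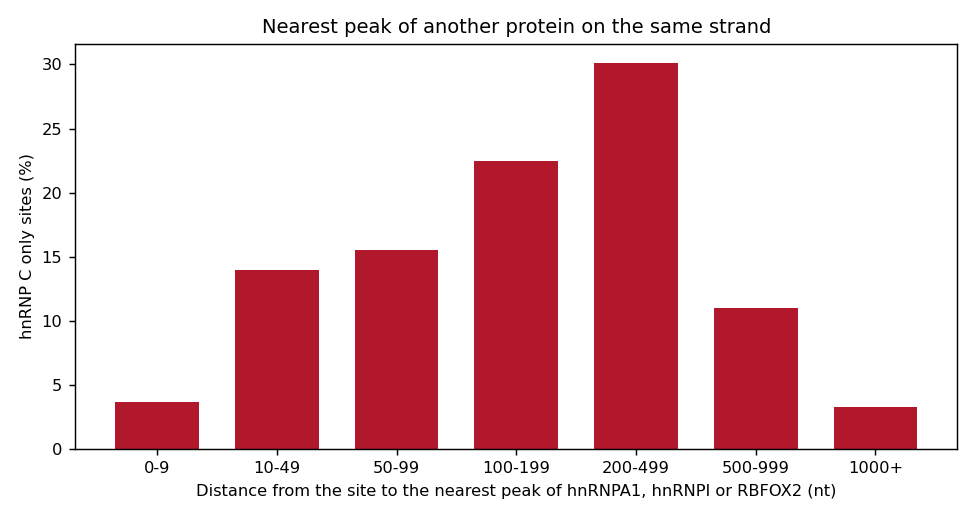
Share of the 114632 hnRNP C only sites (%, vertical axis) by the distance to the nearest same-strand peak of hnRNPA1, hnRNPI or RBFOX2 in the 12 excluding libraries (nt, horizontal axis, classes of unequal width). The class from 200 to under 500 nt is the fullest, with 30.1% of sites.

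Sites nearer to a peak of another protein were also more often overlapped in libraries of other proteins outside the rule. At least 1 of those 12 crosslinked libraries overlapped 19117 hnRNP C only sites (16.7%), where the share over all reproducible sites was 43.4%. Within the hnRNP C only sites it was 39.4% for sites under 10 nt away, 16.4% from 100 to under 200 nt and 5.19% at 1000 nt or more. The median read number fell over the same classes from 15 to 9. At the edge of the rule, and as a description, the 2544 hnRNP C only sites with another protein at most 5 nt away had a median of 15 reads, a median width of 62 nt and a recovery of 44.6% in the 9 hnRNP C groups. The 2702 shared sites with at most 5 nt covered by another protein had 15 reads, 59 nt and 44.7%.

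The shared sites fall into classes by the protein that overlaps them. Recovery in the 9 crosslinked hnRNP C groups was 42.7% for hnRNP C only sites, 46.4% for the 31210 sites shared with hnRNPA1 alone, 49.4% for the 21777 shared with hnRNPI alone and 52.5% for the 10224 shared with RBFOX2 alone. It was 61.9% for the 8471 sites shared with all 3. Median read numbers in the same order were 14, 16, 16, 19 and 25. Without UV (noUV_hnRNPc), the classes were recovered at 28.3%, 27.5%, 40.1%, 41.8% and 61.4%. In noUV_noPAGE_hnRNPc they were recovered at 26.6%, 23.6%, 38.1%, 41.8% and 60.1%, so that sites shared with hnRNPA1 alone were the lowest class of these 5 in both groups.

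The share of hnRNP C only sites that reappeared in a crosslinked hnRNP C library outside the rule ran from 0.779% to 68.8%. By group mean, recovery was highest in hnRNPc_5k_noPAGE, at 66.7% and 66.4%, where the share of all reproducible sites was 69.0% and 68.9%. In hnRNPc_5k_noPAGE_RecJ it was 60.3% and 63.7% (all reproducible sites 62.8% and 66.5%), and in hnRNPc_50k_noPAGE_RecJ 59.9% and 68.8% (63.2% and 71.6%). At medium RNase it was 41.0% and 43.1% (42.6% and 45.6%). In hnRNPc_500_noPAGE it was 44.9% and 44.8% (48.9% and 48.6%), and in hnRNPc_500_noPAGE_RecJ 35.7% and 43.4% (39.7% and 47.4%). The 10k libraries gave 29.4% and 29.8% (35.7% and 35.8%), the 1k libraries 21.3% and 22.7% (26.3% and 28.0%), and the low RNase libraries 0.779% and 26.3% (1.65% and 33.6%). Only the shallow low RNase library fell below 20%, and in each of these 18 libraries hnRNP C only sites were recovered less often than all reproducible sites.

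Recovery is given here beside the number of listed peaks for some libraries of different groups. Replicate 1 of hnRNPc_500_noPAGE listed 279010 peaks and recovered 44.9%, while replicate 2 of hnRNPc_10k listed 267111 and recovered 29.8%. With 210295 peaks, hnRNPc_500_noPAGE_RecJ replicate 1 recovered 35.7%. With 208968 and 214849 peaks, hnRNPc_1k replicate 2 and hnRNPc_50k_lowRNase replicate 2 recovered 22.7% and 26.3%. At similar peak numbers, the higher recovery was thus in the library with noPAGE in its title. The libraries that define the sites also carry noPAGE, and the libraries of lower recovery here do not. Gel purification may therefore differ along with the other steps, and its part was not tested.

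**Figure D3:**
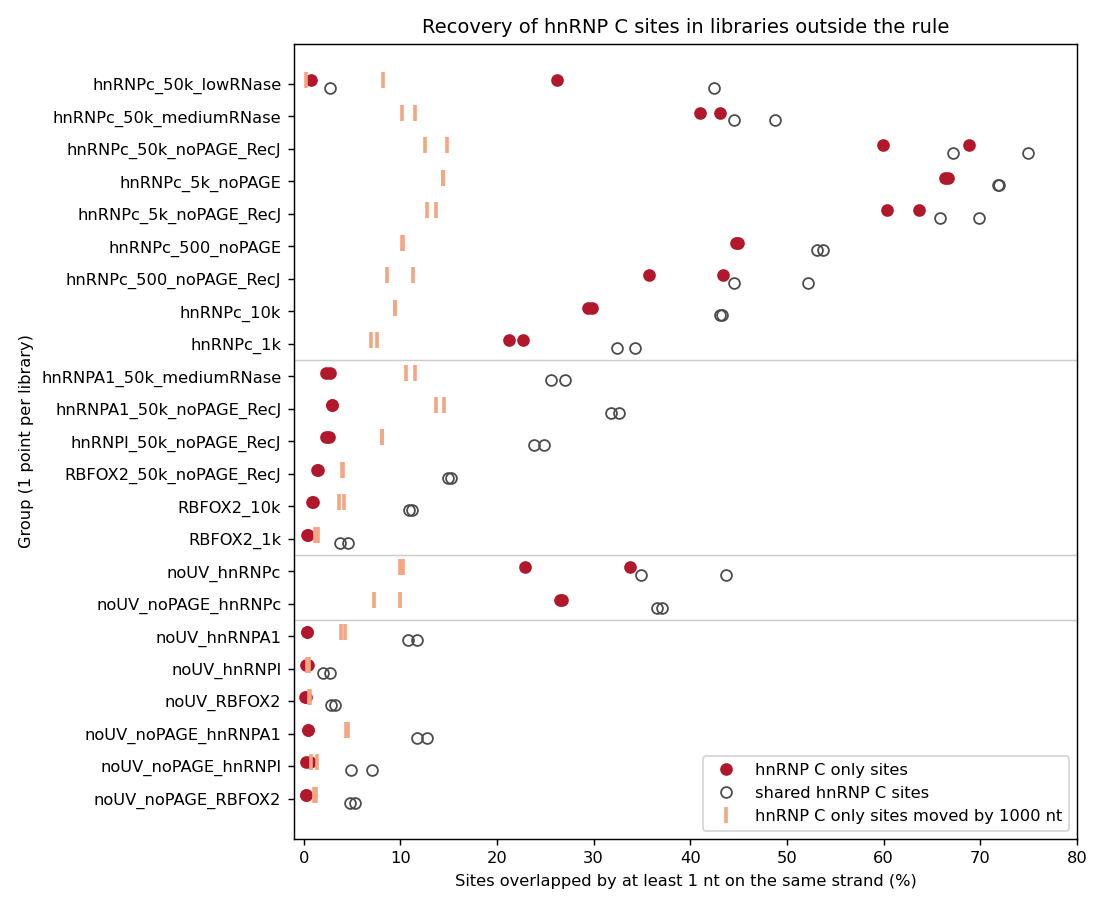
Recovery (% of sites overlapped by at least 1 nt on the same strand, horizontal axis) in each library outside the rule, by group (vertical axis; 1 point per library, 2 per group), for hnRNP C only sites (filled), shared hnRNP C sites (open) and hnRNP C only sites moved by 1000 nt (ticks). All filled points of the other proteins lie under 3%, and those of hnRNP C libraries other than hnRNPc_50k_lowRNase replicate 1 lie between 21.3% and 68.8%.

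In the crosslinked libraries of other proteins that the rule did not use, few hnRNP C only sites were overlapped. For hnRNPA1 the values were 2.31% and 2.72% at medium RNase (all reproducible sites 12.8% and 13.7%) and 2.92% and 2.96% with RecJ (16.0% and 16.4%). They were 2.65% and 2.30% for hnRNPI with RecJ (12.7% and 12.1%). For RBFOX2 they were 1.51% and 1.43% with RecJ (7.70% and 7.54%), 0.863% and 0.984% at 10k (5.38% and 5.59%), and 0.320% and 0.493% at 1k (1.88% and 2.33%). In each of these groups the mean was below that of the same sites moved by 1000 nt, which was 14.1% for hnRNPA1 with RecJ and 8.11% for hnRNPI with RecJ. The rule excluded peaks of these proteins at the site but not at the moved position, so it favours this order. In hnRNPc_5k_noPAGE the moved sites gave 14.4%, against a mean of 66.5% unmoved. In noUV_hnRNPc they gave 10.1%, against 28.3%.

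Mean recovery was 42.7% over the 9 hnRNP C groups and 1.79% over the 6 groups of other proteins, a difference of 40.9 percentage points. The lowest hnRNP C group, at 13.5%, was above the highest group of another protein, at 2.94% (exact two-sided permutation test of group means, p = 0.000799, adjusted 0.00360). The rule removed sites seen with the same 3 proteins in other libraries, so the rule itself favours this direction. For shared sites the same difference was 32.1 points, from 50.9% to 18.9%. With only peaks of p below 1e-05, the difference for hnRNP C only sites was 26.9 points (exact p = 0.00180).

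hnRNP C only sites were recovered less often than shared sites in each of the 9 hnRNP C groups. The mean difference was −8.20 percentage points (exact sign-flip permutation p = 0.00391, the smallest possible here, adjusted 0.00879). It was smallest at medium RNase, with −4.59 ± 1.51 points (SD, n = 2), and largest in hnRNPc_10k, with −13.6 ± 0.515 points (SD, n = 2). The read number of the sites moved with this difference. When shared sites were weighted to the read numbers of the hnRNP C only sites, the mean difference was −0.62 points (exact p = 0.574). The weighted difference was 2.67 points at medium RNase, 2.02 in hnRNPc_5k_noPAGE and 0.933 in hnRNPc_50k_noPAGE_RecJ, and −4.47 in hnRNPc_50k_lowRNase, −5.92 in hnRNPc_10k and −3.84 in hnRNPc_1k.

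Recovery rose steeply with the read number of a site. Of hnRNP C only sites with 4 or 5 reads, 15.5% were recovered on average over the 9 groups, against 57.5% of those with 20 to 29 reads and 88.0% of the 673 with 100 or more. Among sites with 20 to 29 reads, hnRNP C only sites were recovered at 57.4% and shared sites at 53.6% at medium RNase. In hnRNPc_10k the same classes gave 41.8% and 49.3%, and in noUV_hnRNPc 40.1% and 43.5%.

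**Figure D4:**
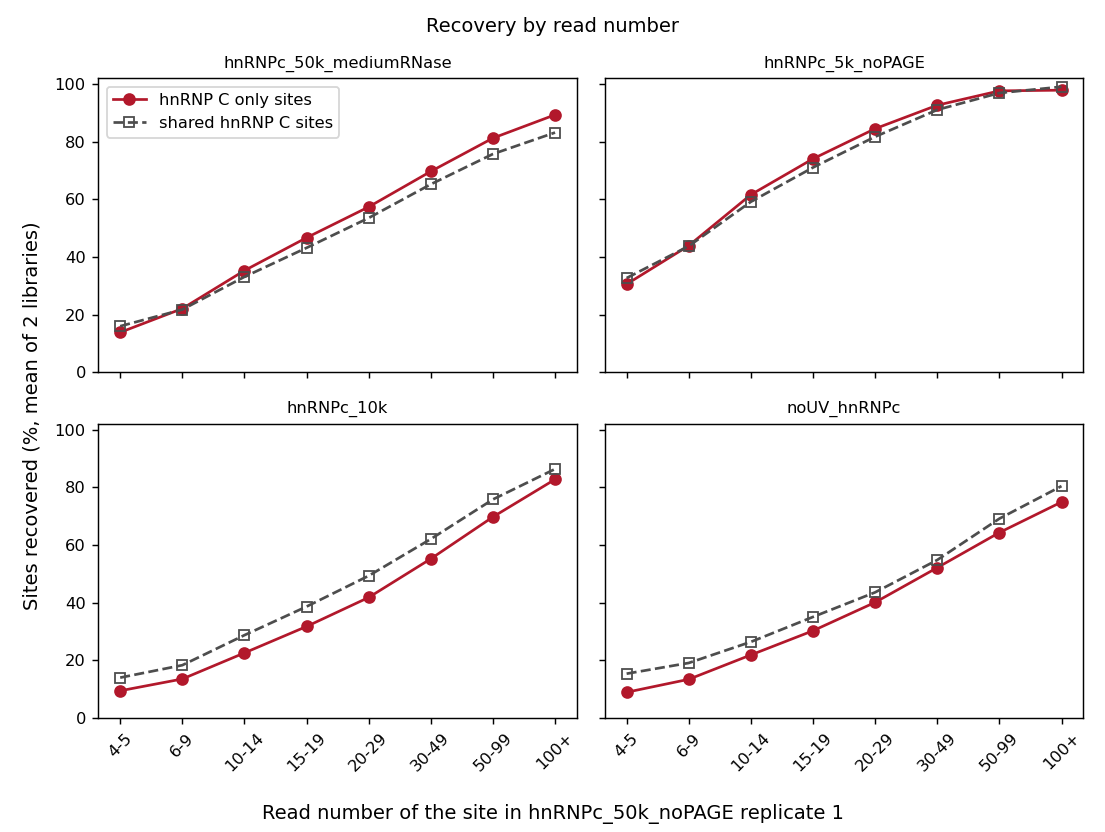
Recovery (%, vertical axis, mean of 2 libraries) by the read number of the site in hnRNPc_50k_noPAGE replicate 1 (horizontal axis, classes), for hnRNP C only sites (filled circles, solid lines) and shared sites (open squares, dashed lines) in 4 groups. Recovery rises with read number in each panel, and hnRNP C only sites lie above shared sites at 20 to 29 reads at medium RNase (57.4% and 53.6%) and below them in hnRNPc_10k (41.8% and 49.3%).

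The 5k and 500 libraries were compared over 4 libraries each, with RecJ used in 2 of each 4. The 2 replicates of a group counted as separate libraries, so the p-values do not measure the spread between groups. Recovery of hnRNP C only sites was 60.3% to 66.7% in the 5k libraries and 35.7% to 44.9% in the 500 libraries, without overlap. The means differed by 22.1 points (exact two-sided permutation p = 0.0286, the smallest possible with 4 against 4, adjusted 0.0429). For shared sites the means were 69.9% and 50.9%. The difference between hnRNP C only and shared sites within a library was −5.15 to −6.16 points in the 5k libraries and −8.39 to −8.84 points in the 500 libraries. It was thus 3.10 points smaller in the 5k libraries (exact p = 0.0286, adjusted 0.0429). With only peaks of p below 1e-05 it was 0.848 points (exact p = 0.0571), with an overlap of at least 50% of the site 1.48 points (exact p = 0.0286), and with shared sites weighted by read number 1.68 points (exact p = 0.0286). The 5k libraries listed 389080 to 464443 peaks and the 500 libraries 210295 to 307258. The part of peak number in the difference was not tested.

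A site was overlapped in a median of 7 of the 18 crosslinked hnRNP C libraries outside the rule, against 9 for shared sites. There were 47715 hnRNP C only sites (41.6%) in at least 9 libraries, where the share over all reproducible sites was 47.6%. Only 372 (0.325%) were in all 18, against 0.858% of all reproducible sites, and 3163 (2.76%) were in none, against 2.34%. Without the 3268-peak library, 2528 (2.21%) were in all 17, against 4.00%. Both libraries of a group overlapped 52.0% of hnRNP C only sites in hnRNPc_5k_noPAGE, 30.1% at medium RNase and 11.6% in hnRNPc_1k. For shared sites the values were 59.2%, 34.9% and 20.9%.

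**Figure D5:**
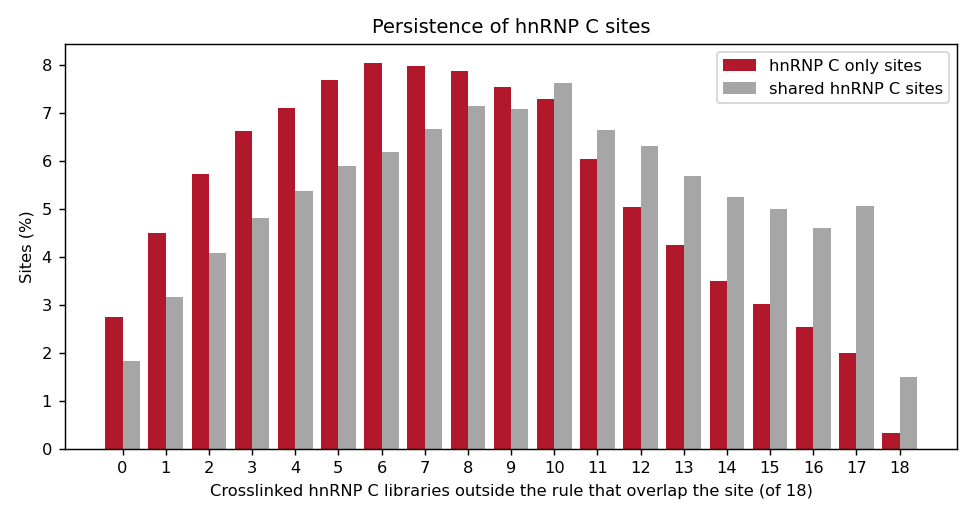
Share of sites (%, vertical axis) by the number of crosslinked hnRNP C libraries outside the rule, of 18, that overlap them (horizontal axis), for hnRNP C only sites (dark bars) and shared sites (grey bars). hnRNP C only sites are most often in 6 libraries (8.04%), and 0.325% of them and 1.50% of shared sites are in all 18.

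The 372 sites found in all 18 libraries lay under 223 gene entries. Their median read number was 91.5 and their median width 92 nt. Of them, 189 (50.8%) were also in all 4 hnRNP C libraries without UV. A crosslinked library of another protein outside the rule overlapped 133 (35.8%), and 145 (39.0%) had another protein within 50 nt in the excluding libraries. For all hnRNP C only sites the corresponding shares were 7.63% (8746 sites, where that over all reproducible sites was 11.0%), 16.7% and 17.6%.

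hnRNP C only sites were also recovered by hnRNP C libraries without UV. In noUV_hnRNPc, 33.8% and 22.9% of them were overlapped (all reproducible sites 38.3% and 28.3%), although both libraries listed nearly the same number of peaks, 299616 and 299307. In noUV_noPAGE_hnRNPc the shares were 26.7% and 26.5% (31.1% and 31.3%), with 187729 and 278452 peaks. The 6 crosslinked hnRNP C libraries from 50000 cells outside the rule ranged from 0.779% to 68.8% with a mean of 40.0%, so that the ranges overlapped. The mean without UV, 27.5%, was 12.5 points lower (−12.5), which did not pass the test (exact two-sided permutation p = 0.348, adjusted 0.348). Without hnRNPc_50k_lowRNase replicate 1 the difference was −20.3 points (exact p = 0.0556), without hnRNPc_50k_noPAGE_RecJ replicate 2 it was −6.74 points (exact p = 0.571), and without replicate 1 of that group −8.52 points (exact p = 0.540). These comparisons do not show that recovery is alike with and without UV. The crosslinked libraries also include hnRNPc_50k_mediumRNase, at 0.025 U RNase, and hnRNPc_50k_noPAGE_RecJ, with RecJ. The groups without UV used 0.005 U and have no RecJ in their titles. Of the groups compared, only hnRNPc_50k_noPAGE_RecJ and noUV_noPAGE_hnRNPc carry noPAGE in their titles, so gel purification is not balanced either. UV cannot be told apart from these steps.

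The difference between hnRNP C only and shared sites was −9.88 to −12.0 points in the 4 libraries without UV and −1.92 to −16.2 points in those 6 crosslinked libraries. The means differed by −3.81 points, which did not pass the test (exact permutation p = 0.176, adjusted 0.198). The same differences in RNase, RecJ and gel purification between the libraries apply here. Without hnRNPc_50k_lowRNase replicate 2, the library with the difference of −16.2, the value was −5.69 points (exact p = 0.00794). With an overlap of at least 50% of the site it was −2.28 points (exact p = 0.319), and with other proteins excluded within 50 nt −2.07 points (exact p = 0.467). As a log2 ratio of the recovery of hnRNP C only sites to that of shared sites, the difference was 0.033 (exact p = 0.976).

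Libraries of the other proteins without UV overlapped very few hnRNP C only sites. For hnRNPA1 the shares were 0.392% and 0.319% in noUV_hnRNPA1 (all reproducible sites 5.54% and 5.08%) and 0.409% and 0.468% in noUV_noPAGE_hnRNPA1 (5.53% and 6.04%). For hnRNPI they were 0.227% and 0.451% (1.04% and 1.46%), and 0.266% and 0.653% where PAGE was left out (2.34% and 3.58%). For RBFOX2 they were 0.195% and 0.161% (1.59% and 1.38%), and 0.243% and 0.293% where PAGE was left out (2.29% and 2.57%). The 4 hnRNP C libraries without UV were higher by 27.1 points than these 12, with no overlap (exact two-sided permutation p = 0.000549, the smallest possible here, adjusted 0.00360). This test counted the 2 replicates of a group as separate libraries, where the crosslinked test averaged them first. Its p-value therefore does not measure the spread between groups. The rule, which removed sites with peaks of these same 3 proteins, favours this direction too, and for shared sites the difference was larger, at 31.4 points. With only peaks of p below 1e-05 the difference for hnRNP C only sites was 14.5 points, and with an overlap of at least 50% of the site 17.8 points (exact p = 0.000549 each). The libraries of other proteins without UV listed 18690 to 196278 peaks, fewer than most of the hnRNP C libraries, and the part of peak number was not tested.

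At least 1 of the 4 hnRNP C libraries without UV overlapped 61906 hnRNP C only sites (54.0%; all reproducible sites 59.3%). Both noUV_hnRNPc libraries overlapped 17166 hnRNP C only sites (14.97%) and both noUV_noPAGE_hnRNPc libraries 16917 (14.8%), against 25.2% and 23.8% of shared sites. The 8746 sites in all 4 are 50.9% of the first set and 51.7% of the second. At least 1 of the 12 libraries of other proteins without UV overlapped 3402 sites (2.97%; all reproducible sites 13.3%). The gel-region libraries, which listed 303 to 6716 peaks, overlapped 0.0192% to 0.288% of hnRNP C only sites and 0.285% to 1.23% of shared sites.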

How the data were processed

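Peak lists of 68 TLC-CLIP libraries were used. Per the submitters' processing notes, bcl2fastq, STAR 2.7.3a, UMI-tools 1.0.1 and the genome build hg19 were used, and the file names give CLIPper as the peak caller. For the caller's settings and the annotation release, the sources used here state nothing. The peaks lie under Ensembl gene identifiers, each library was listed separately, and each p-value was used as the authors deposited it (at most 0.00755), with no stated adjustment. The deposited peak names end in a number, at least 4 everywhere, taken as the read number. Its meaning is not stated.

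Coordinates are printed from 1. Overlaps, widths and distances were computed with Python 3.11.15, numpy 2.4.6, pandas 2.3.3 and scipy 1.17.1 after the overlap code had been tested on simulated data. All listed peaks were kept, and intervals listed under several genes were each counted. Recovery was compared over group means or libraries by exact permutation or sign-flip tests, 9 in all, with Benjamini-Hochberg adjustment.

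The sites, lists and tests were chosen with earlier results of these data known. Named were the 10 genes with most clusters, the 10 genes with the highest share among genes with at least 50 reproducible peaks, the 10 sites whose lower-placed rank by p in the 2 replicates was best, and the 10 sites with most reads among those in all 18 libraries, each 1 per gene, with examples printed. A single gene, with sites of more reads than those named, and chromosome Y are not reported here and were left out of these rankings. Gene names and the genome sequence of the build were not used here, so that exon or intron position and uridine runs were not analysed. None of the gene identifiers (0) matched the gene table at hand, and the gene lists that needed names were not applied. Alternatives covered the overlap minimum, a stricter p, joined sites, the exclusion window and strand, a read minimum, the choice of replicate, read-number weighting, and each library left out in turn.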

Additional observations from a re-analysis of the deposited data

Results flagged for a closer look

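The difference in recovery between hnRNP C only and shared sites itself differed between the 5k and the 500 libraries, by 3.10 percentage points in the test of that difference (exact two-sided permutation p = 0.0286, adjusted 0.0429). It was smaller in size in 4 of 4 libraries of the 5k groups than in any of the 4 libraries of the 500 groups. With an overlap of at least 50% of the site the value was 1.48 points, with shared sites weighted by read number 1.68 points, and with only peaks of p below 1e-05 0.848 points (exact p = 0.0571). Libraries of the 5k groups also listed more peaks, and the part of this was not tested.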

How the results depend on the processing

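The 9 tests were repeated under the alternatives named with the processing. Identical intervals counted once and the log2 ratio were chosen after seeing the data. Recovery in hnRNP C against other proteins has a direction that the rule favours, so that keeping it is no sign of stability. Its size moved from 40.9 to 26.9 points with crosslinking and from 27.1 to 14.5 points without UV when only peaks of p below 1e-05 were used, to 30.1 and 17.8 points with an overlap of at least 50% of the site, and ranged from 39.5 to 42.3 points with crosslinking when libraries were left out. Weighting shared sites to the read numbers of the hnRNP C only sites gave −0.62 points for their difference in recovery (exact permutation p = 0.574) and 0.037 for the log2 read number (exact p = 0.0625). As a log2 ratio, the difference between hnRNP C only and shared sites turned its direction in the comparison of libraries with and without UV (0.033, exact p = 0.976). The width difference passed the threshold with an overlap of at least 50% of the site (−1.72 nt, exact p = 0.0234) and with sites of at least 10 reads (−1.33 nt, exact p = 0.0430), and was −0.111 nt with p below 1e-05 (exact p = 0.875) and −0.222 nt with read-number weighting (exact p = 0.586). The weighted width and log2 read number also take only the first overlapping peak of each site. The 5k against 500 difference between site classes was 0.848 points with p below 1e-05 (exact p = 0.0571), 1.48 with an overlap of at least 50% and 1.68 with the weighting.

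With libraries left out in turn, the width difference ranged from −1.56 to −0.778 nt, the recovery difference with and without UV from −20.3 to −6.74 points, and the difference between hnRNP C only and shared sites, with against without UV, from −5.69 to −2.84 points. Replicate numbers did not pair the libraries: over 36 pairs of groups the correlation ran from −0.02 to 0.01. With the replicate block, the 5k against 500 values were 22.1 and 3.10 points with exact permutation p = 0.0556 each. That is the smallest p the block allows there, so neither could pass the threshold of 0.05. The block changed no other call. The causes of these changes were not tested. The unknown sequencing depth limits all comparisons of recovery between libraries, and a site that is not listed is not shown to be unbound.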

Other observations

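The spacing of neighbouring peaks over hnRNP C only sites had its mode at 120 to 140 nt in 4 of 4 hnRNP C libraries without UV. In 17 crosslinked hnRNP C libraries outside the rule the mode lay in bins between 60 and 120 nt, and in hnRNPc_50k_lowRNase replicate 1, with 732 such peaks, at 120 to 140 nt. Both hnRNPc_1k libraries had it at 60 to 80 nt. Over shared sites, the libraries without UV had modes at 80 to 100 nt, 100 to 120 nt in a pair of libraries, and 20 to 40 nt. These values were noticed in the data and were not tested.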
